A study of Mus musculus with 6 samples.

Results

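The genes of adenosine production, sensing and removal were examined in cultured liver CD31-positive cells. They were chosen by gene symbol from the 13595 genes of the deposited table, and 7 of 7 were listed there. These are the ectonucleotidases Entpd1 and Nt5e, the receptors Adora2a and Adora2b, the removal enzymes Ada and Adk, and the transporter Slc29a1. In GENCODE M21 (GRCm38) they lie on chromosomes 19, 9, 10, 11, 2, 14 and 17, in that order, so none is on a sex chromosome. The cells were selected for CD31, an endothelial surface protein, from livers of C57BL6/J mice aged 4 weeks and then cultured. Both groups received 100 µM indoxyl sulfate, a tryptophan metabolite that activates the aryl hydrocarbon receptor, together with hypoxia and nutrient deprivation for 6 hours. One group of 3 libraries is labelled male, the other group of 3 female, so the contrast is between labelled sexes under treatment. Untreated or DMSO cultures were not analysed here, and the values therefore show no response to indoxyl sulfate or to hypoxia.

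ATP and ADP that leave stressed or dying cells are cut to AMP at the cell surface by CD39, the product of Entpd1, and AMP is cut to adenosine by CD73, the product of Nt5e. Adenosine then acts on G-protein-coupled receptors. Those encoded by Adora2a and Adora2b couple to the stimulatory G protein and raise cyclic AMP, which in endothelium is known to tighten the barrier and to restrain leukocyte adhesion. Its signal ends when the equilibrative transporter ENT1, encoded by Slc29a1, carries adenosine into the cell, where adenosine kinase (Adk) returns it to AMP and adenosine deaminase (Ada) turns it into inosine. In the literature on endothelium and epithelium, hypoxia raises Nt5e and Adora2b and lowers Slc29a1 and Adk.

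The recovered reads summed to between 22303270 and 31189363 per library, and the members held between 4 and 7520 reads in a library. Values are normalized read counts, which are reads divided by 1 factor per library. As a check of the sex labels, Xist, the RNA of X inactivation, lay between 0.124 and 0.458 in the male-labelled libraries and between 234 and 324 in the female-labelled ones. Transcripts of the Y-linked genes Ddx3y, Uty, Eif2s3y and Kdm5d were nevertheless read in every female-labelled library, at 17.6 to 57.7, against 23.7 to 76.3 in the male-labelled ones. Eif2s3y (55.3 to 61.2 against 29.4 to 30.2) and Kdm5d (30.7 to 37.5 against 17.6 to 20.8) were lower in the female-labelled libraries, and Ddx3y and Uty overlapped. Y-linked reads in the female-labelled libraries go against the female label, and each direction given here is between libraries as labelled. Male replicate 4 stood apart from the rest of its group, with a chi-square per gene of 43.6 and 45.4 against male replicates 5 and 6, compared with 5.98 between those. Nothing in the labels says that replicates came from separate mice or cultures, so each SD and p-value measures the spread between these libraries, which may be technical.

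The endothelial identity of the cells was checked against marker genes. Pecam1, which encodes CD31, was at 391 to 423 in the male-labelled libraries and at 73.5 to 74.5 in the female-labelled ones. Marker counts stand against the 69.3% of all genes tested that passed the limma threshold of an adjusted p under 0.05, 34.6% higher and 34.6% lower. Of 14 endothelial markers tested, 12 were lower and 1 higher in the female-labelled libraries, and their summed level was 2414 to 2531 against 1231 to 1286. Kdr was low in both groups and did not pass (3.19 to 3.96 against 2.34 to 3.61). Cldn5 was at or under 0.883 in every library and was not tested. Of 10 markers of liver sinusoidal endothelium, 3 passed the filter and all 3 were lower in the female-labelled libraries. The defining markers Clec4g, Fcgr2b and Clec1b were at 3 reads or fewer in each library, while Lyve1 was at 470 to 513 against 4.37 to 5.48. Stellate, mural and fibroblast markers were present in both groups (summed level 2922 to 3755 against 3537 to 4234), with 4 of 14 tested higher and 9 lower in the female-labelled libraries. These sums were made up differently. Acta2 (45.9 to 134 against 1513 to 1887) and Tagln (32.5 to 83.6 against 900 to 1179) were among the higher, and Col3a1 (1115 to 1553 against 205 to 242) among the lower. Macrophage markers summed to 11.98 to 14.8 against 15.2 to 18.2, and Ptprc, the common leukocyte gene, was at 0 in the 3 male-labelled libraries and at 0.142 to 0.332 in the female-labelled ones. Of the 11 macrophage markers listed, 6 were at 3 reads or fewer in every library. Hepatocyte markers summed to at most 2.36, none passed the filter, and Alb was at or under 0.600. Of the cholangiocyte markers 4 of 5 tested were lower and 1 higher (summed level 1643 to 2492 against 512 to 613), and the 10 lymphocyte markers were not analysed here. In bulk RNA, fewer cells of a type and less RNA per cell cannot be told apart. Of the markers counted as lower, Vwf and Robo4 (endothelial), Gpr182 (sinusoidal) and Lum (fibroblast) reached a value of 1 only in the male-labelled libraries and so had to differ to be tested. The part that these marker differences have in the results on adenosine genes was not tested.

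Between the groups, Entpd1 and Nt5e were higher in the female-labelled libraries, the uptake transporter and the weakly expressed receptor Adora2a were lower, and deaminase was higher. Of the 7 members, 3 were higher, 2 were lower and 2 did not pass the limma threshold of an adjusted p under 0.05. This has to be read against a contrast in which 69.3% of the 12568 genes tested passed, 34.6% higher and 34.6% lower. The members' share is close to that background. edgeR's quasi-likelihood test on the recovered reads called the same 5 members, where it called 68% of its genes. Groups did not overlap for 5 of the 7 members, against 74.1% of all genes tested. The median log2 fold change was 0.11 over the members and 0.01 over all genes, and the members lay on both sides of 0. Adora2a passed the filter on low values (at least 1 in at least 3 libraries) only through the group where it is high, so it had to differ to be tested. The same holds for 5 of the 97 list genes tested, Entpd2, Alpl, P2rx1, P2rx6 and Nr4a3, none of which reached 1 in a female-labelled library, and for 5.46% of all genes tested. Their calls and list counts are given as descriptions, and the pseudocount of 1 shrinks their log2 fold changes.

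**Figure D1:**
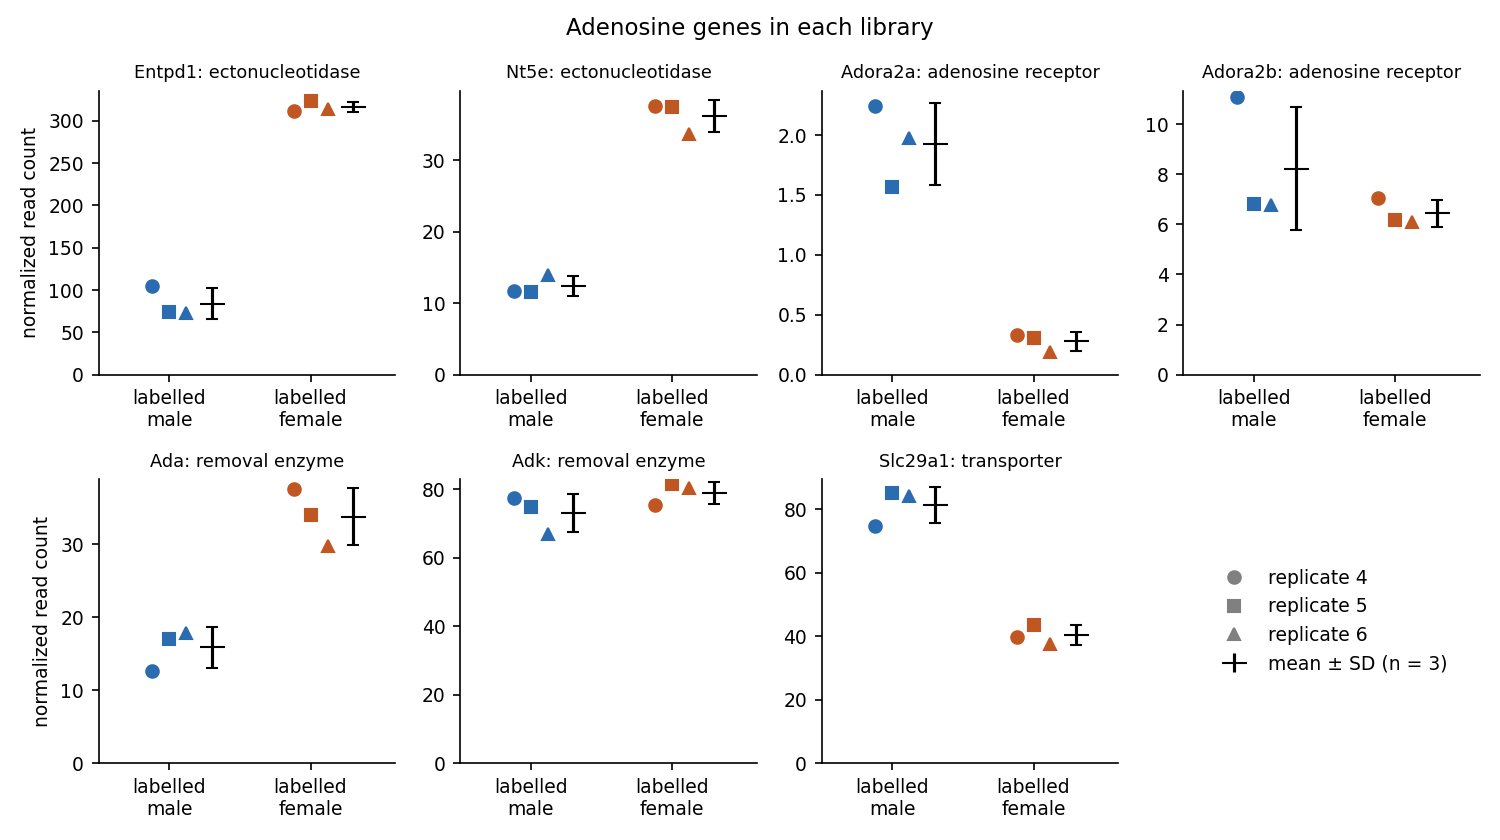
Normalized read count (y axis, from 0) of each adenosine gene in the 3 male-labelled libraries (blue) and the 3 female-labelled ones (orange), with the mean ± SD in black and the marker shape giving the replicate number. The groups separate for Entpd1, Nt5e, Adora2a, Ada and Slc29a1 and overlap for Adora2b and Adk.

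The sequences just before the annotated starts of Entpd1 and Nt5e are shown because these genes encode the consecutive enzymes of adenosine production and were both higher in the female-labelled libraries. Of the 7 members, 6 matched by symbol to the promoter sequences of RefSeq (GRCm38.p6). The 250 bases before each start were searched on both strands for ACGTG and for GCGTG. They were also searched for TGACG, the core of the cyclic AMP response element, and for GGGCGG, known as the GC box. ACGTG and GCGTG differ in their first base. HIF recognises both, and the AHR-ARNT dimer recognises GCGTG. The Nt5e window is chr9:88327359-88327608 and the first Entpd1 window is chr19:40612116-40612365, both on the plus strand and given 5′ to 3′ with matches of GCGTG in capitals.
Nt5e: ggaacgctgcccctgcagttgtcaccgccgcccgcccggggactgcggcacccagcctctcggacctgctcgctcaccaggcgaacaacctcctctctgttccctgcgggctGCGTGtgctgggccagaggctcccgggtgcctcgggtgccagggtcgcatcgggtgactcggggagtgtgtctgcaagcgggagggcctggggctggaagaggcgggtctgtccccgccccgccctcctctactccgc
Entpd1: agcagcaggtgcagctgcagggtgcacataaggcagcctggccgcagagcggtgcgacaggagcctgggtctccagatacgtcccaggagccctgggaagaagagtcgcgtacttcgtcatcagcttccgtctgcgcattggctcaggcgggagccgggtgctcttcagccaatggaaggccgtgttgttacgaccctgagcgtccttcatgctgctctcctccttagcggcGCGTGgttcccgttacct
Each held a single GCGTG, which began 138 bases before the Nt5e start and 18 bases before the first Entpd1 start, and neither held ACGTG. The window before the second Entpd1 start (chr19:40659520-40659769) held no GCGTG and no ACGTG. Among all 32851 windows of this length, 28.2% held GCGTG, 16.6% ACGTG, 17.8% TGACG and 32.7% GGGCGG. Across the 15 windows of the 6 members, GCGTG was found in 7, which belong to 5 members, and ACGTG in 3, all before starts of Slc29a1. TGACG was found in 4 of these windows, of 3 members, and GGGCGG in 9, of 5 members. Slc29a1 has 8 of these windows, which do not overlap. A match describes letters only.

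On the log2(value + 1) scale Entpd1 was the member with the largest difference, whereas by the ratio of means, edgeR, DESeq2 and a pseudocount of 0.1 it was Adora2a. The normalized read counts of Entpd1 were 105, 73.6 and 72.5 in male replicates 4, 5 and 6 and 312, 323 and 315 in female replicates 4, 5 and 6. Every female-labelled library was above every male-labelled library, and male replicate 4 was the highest of its group. The means were 83.8 ± 18.6 and 317 ± 5.74 (SD, n = 3), a 3.78-fold higher level in the female-labelled libraries. The log2 fold change, on the log2(value + 1) scale, was 1.93 (limma adjusted p 4.38e-06, SE 0.13), and 6.06% of all genes tested had a change of at least this size. CD39 is carried by endothelium and by several leukocytes. Of the macrophage markers beside it, Cd68 (4.56 to 5.65 against 7.22 to 7.97) and Csf1r (2.74 to 3.97 against 4.61 to 6.14) were higher in the female-labelled libraries, Cd14 (4.44 to 4.94 against 2.08 to 2.41) was lower, and the complement genes C1qa, C1qb and C1qc were at 3 reads or fewer in every library.

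Nt5e moved the same way from a lower level. It was read at 11.7, 11.6 and 13.9 in the male-labelled libraries and at 37.6, 37.4 and 33.7 in the female-labelled ones. The 2 groups were well separated, and the libraries within each lay close together. The means of 12.4 ± 1.34 and 36.2 ± 2.20 (SD, n = 3) differed 2.92-fold, a log2 fold change of 1.48 (limma adjusted p 3.72e-06, SE 0.10). CD73 also marks fibroblasts and other mesenchymal cells. Of 14 stellate, mural and fibroblast markers tested, 9 were lower in the female-labelled libraries, among them Col1a1 (535 to 575 against 337 to 361) and Pdgfrb (129 to 136 against 13.04 to 15.3). The 4 higher were Acta2 (45.9 to 134 against 1513 to 1887), Tagln, Myh11 (1.41 to 1.79 against 103 to 147) and Des (6.97 to 9.11 against 12.5 to 16.9). Thy1 did not pass (25.9 to 26.7 against 25.9 to 32.8). Over all genes tested, 34.6% were lower and 34.6% higher.

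Of the receptors, Adora2a was near the detection limit. It had 54, 41 and 56 reads in the male-labelled libraries and 8, 7 and 4 in the female-labelled ones. In normalized read counts this was 2.24, 1.56 and 1.98 against 0.332, 0.309 and 0.190. The groups did not overlap, and the mean of 0.277 ± 0.0763 (SD, n = 3) was 14.4% of the 1.93 ± 0.341 (SD, n = 3) in the male-labelled libraries. The log2 fold change was -1.19 (limma adjusted p 6.91e-05, SE 0.13). The pseudocount of 1 shrinks a change at this level: with 0.1 the log2 fold change was -2.43, and edgeR on the recovered reads gave -2.77 (adjusted p 7.00e-05).

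Adora2b did not pass the test. Its normalized read counts were 11.1, 6.83 and 6.78 in the male-labelled libraries and 7.06, 6.19 and 6.08 in the female-labelled ones. The groups overlapped, and male replicate 4 lay above the other 5 libraries. The log2 fold change was -0.28 (95% interval -0.69 to 0.12, limma adjusted p 0.187). Without male replicate 4 it was -0.07. Adora2b is known as the low-affinity receptor that responds when adenosine is abundant.

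The removal enzymes differed from each other. Ada, which deaminates adenosine to inosine, was at 12.6, 17.1 and 17.8 in the male-labelled libraries and at 37.6, 33.9 and 29.8 in the female-labelled ones. Every female-labelled library was higher, and the means of 15.9 ± 2.80 and 33.8 ± 3.92 (SD, n = 3) differed 2.13-fold. The log2 fold change was 1.05 (limma adjusted p 0.000209, SE 0.14). Adk, which phosphorylates adenosine inside the cell, was at 77.5, 74.7 and 66.8 against 75.2, 81.3 and 80.2. Its groups overlapped, and the log2 fold change of 0.11 (95% interval -0.06 to 0.28, limma adjusted p 0.205) did not pass. Adk passed as higher under quantile normalization (0.17, limma adjusted p 0.0473) and without male replicate 4 (0.16, limma adjusted p 0.0483).

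Slc29a1, the transporter that clears extracellular adenosine, was lower in the female-labelled libraries. It was read at 74.8, 85.2 and 84.2 in the male-labelled libraries and at 39.9, 43.7 and 37.6 in the female-labelled ones. The groups did not overlap. The means were 81.4 ± 5.72 and 40.4 ± 3.08 (SD, n = 3), so the second was 49.6% of the first, and the log2 fold change was -0.99 (limma adjusted p 1.28e-05, SE 0.08). An antisense gene, Gm17080, overlaps 6.86% of the exonic bases of Slc29a1. Whether the counting used strand is not given in the sources used here, so reads in that stretch are uncertain. The other 6 members overlapped no annotated exon of another gene, and at most 0.211% of the 50-mers of any member occurred in another gene's transcripts.

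**Figure D2:**
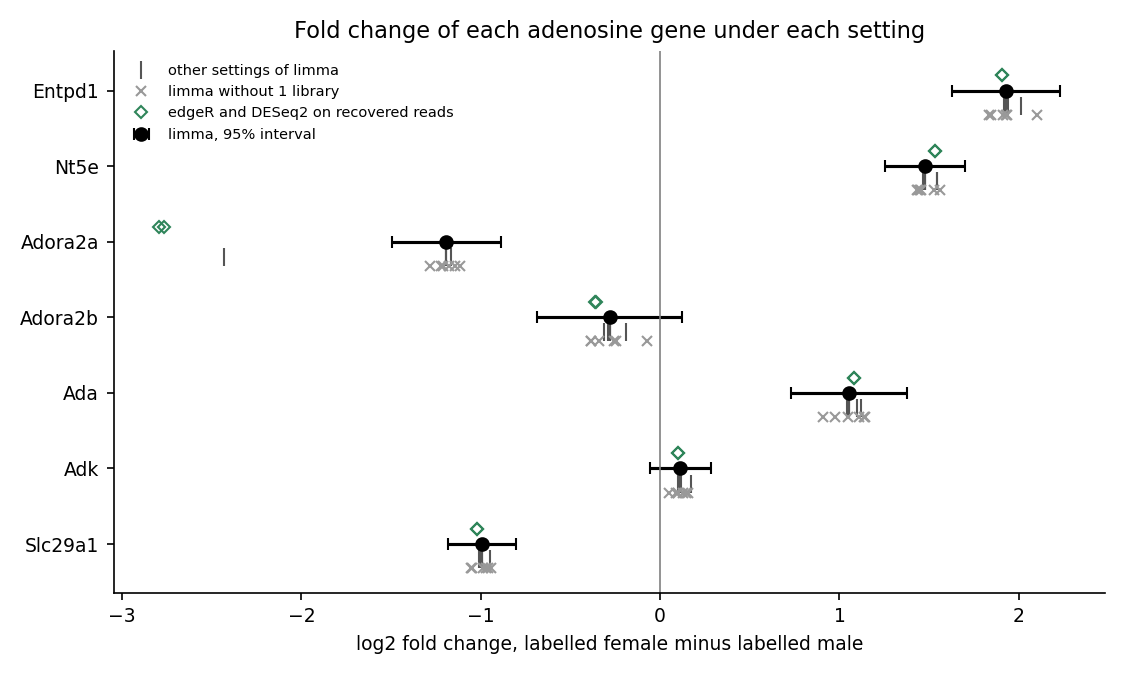
Log2 fold change (x axis, female-labelled libraries minus male) of each adenosine gene: black points with the 95% interval from limma, ticks for other limma settings, crosses for fits without 1 library and diamonds for edgeR and DESeq2 on recovered reads. Entpd1, Nt5e and Ada lie right of 0 and Adora2a and Slc29a1 left of it under every setting in which they were tested (Adora2a was not with a value of at least 1 in all 6 libraries), and the size for Adora2a depends on the setting.

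The authors' deposited table gave a false discovery rate under 0.05 to 5 of the 7 members, where 25.8% of its genes had one. These are the 5 members called here. In the authors' deposited table the signed fold changes were 3.78 for Entpd1, 2.92 for Nt5e, 2.13 for Ada, -2.02 for Slc29a1 and -6.82 for Adora2a. The false discovery rate in the authors' deposited table was nearest to the threshold for Slc29a1 (0.0433) and for Nt5e (0.0142).

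Levels of different genes were compared per kilobase of the longest coding transcript in GENCODE M21. Per length, Adk was the most abundant member in the male-labelled libraries (40.2 ± 3.05 per kb, SD, n = 3), followed by Slc29a1 (36.7 ± 2.58) and Entpd1 (19.9 ± 4.40). The lowest of Adk and the highest of Slc29a1 overlapped there (36.8 and 38.5). In the female-labelled libraries Entpd1 stood first (75.0 ± 1.36 per kb), above Adk (43.4 ± 1.79), and Ada (20.01 ± 2.32) and Slc29a1 (18.2 ± 1.39) overlapped in range. Nt5e was sparse by comparison, at 3.10 ± 0.336 per kb in the male-labelled libraries and 9.06 ± 0.551 in the female-labelled ones. Adora2b was at 4.46 ± 1.34 and 3.49 ± 0.290 per kb, and Adora2a was the lowest member in both groups, at 0.742 ± 0.131 and 0.107 ± 0.0294. With the median in place of the longest coding transcript length, Adora2a stood above Nt5e in the male-labelled libraries, and Slc29a1 above Ada in the female-labelled ones.

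**Figure D3:**
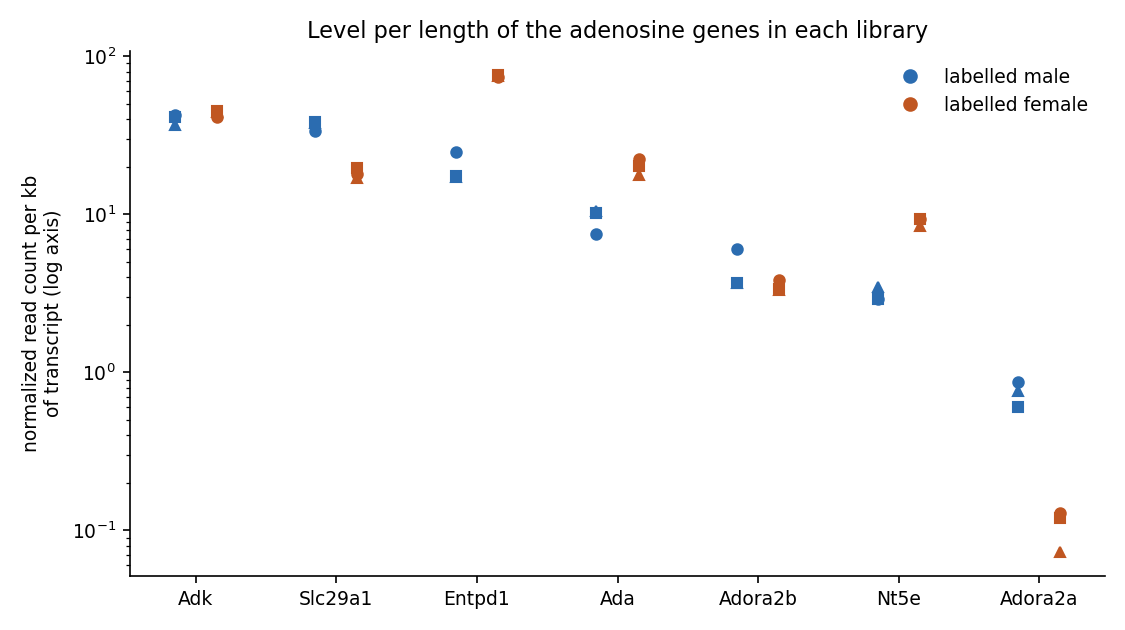
Normalized read count per kilobase of the longest coding transcript (log y axis) of each adenosine gene in each library (circles, squares and triangles for replicates 4, 5 and 6), ordered by the mean in the male-labelled libraries. Entpd1 stands below Adk and Slc29a1 in the male-labelled libraries and above them in the female-labelled ones, and Adora2a is the lowest in both.

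Ratios of members within a library do not depend on the library's scaling. The per-kilobase level of Nt5e was 0.0754 to 0.0919 of that of Slc29a1 in the male-labelled libraries and 0.475 to 0.522 in the female-labelled ones. For this ratio the groups had to separate, since every female-labelled library was higher in Nt5e and lower in Slc29a1. The ratio of Ada to Adk was 0.176 to 0.287 and 0.400 to 0.539. Adora2b exceeded Adora2a 4.82 to 6.96 times in the male-labelled libraries and 28.1 to 45.0 times in the female-labelled ones, where Adora2a rests on at most 8 reads. A change of transcript length scales a ratio alike in all 6 libraries, so it alters the size but cannot alter the overlap of groups. With median in place of longest coding transcript lengths, Nt5e to Slc29a1 was 0.0295 to 0.0360 and 0.186 to 0.204. Ada to Adk was then 0.0596 to 0.0976 and 0.136 to 0.183, and Adora2b to Adora2a 1.06 to 1.53 and 6.17 to 9.88. The ratio of Entpd1 to Nt5e overlapped between the groups (4.92 to 8.55 and 7.86 to 8.84). These ratios combine values described above and were not tested.

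Other genes of nucleotide and adenosine handling were taken from lists. Of 97 list genes tested, 29 were higher and 46 lower in the female-labelled libraries (77.3% called, where 69.3% of all genes tested were, 34.6% in each direction; the counts of single lists that follow stand against the same shares), and the median log2 fold change was -0.19 against 0.01 over all genes tested. Adora1 and Adora3, the genes of the adenosine receptors that couple to inhibitory G proteins, were not analysed here. Among the other genes of extracellular nucleotide breakdown, 8 of 12 tested were lower and 2 higher (median -0.74), and 2 of the 8, Entpd2 and Alpl, passed the filter only through the male-labelled libraries. The other surface ATPase Entpd2 was at 3.11 to 4.995 against 0.291 to 0.486, so the mean in the female-labelled libraries was 9.38% of the other (log2 fold change -1.90). Cd38, an NAD-consuming ectoenzyme (-2.29), tissue-nonspecific alkaline phosphatase Alpl (-1.58), Enpp2, which makes lysophosphatidic acid (-3.69), and Enpp4 (-1.28) were also lower. Enpp1, which cuts ATP to AMP, was higher (0.40, limma adjusted p 0.0364). That call was lost with DESeq2 (adjusted p 0.0758) and without male replicate 5 or 6 or female replicate 4 or 5 (limma adjusted p 0.0685 to 0.132). Entpd2 and Alpl can act on the same substrates as Entpd1 and Nt5e.

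ATP can leave cells through connexin and pannexin channels. Gja4 (connexin 37, log2 fold change -5.64) and Gja1 (connexin 43, -1.85) were lower in the female-labelled libraries, whereas Gjc1, another connexin gene, was higher (0.98). The vesicular nucleotide transporter Slc17a9 was higher (1.29), and Panx1 did not pass the test (12.1 to 20.1 against 18.6 to 19.3), though it did as higher without male replicate 6 (0.43, limma adjusted p 0.0165). Of the 6 genes of this list tested, 3 were lower and 2 higher. Of 8 tested P2 receptors, which sense ATP, ADP and UDP directly, 4 were lower and 3 higher, with a median of -0.70, and 2 of the 4, P2rx1 and P2rx6, passed the filter only through the male-labelled libraries. P2ry6 was at 18.7 to 20.4 against 1.99 to 2.03 (-2.77), P2ry2 (-1.22) and P2rx6 (-1.08, with a mean that was 11.7% of that in the male-labelled libraries) were lower, and P2rx4, the main ATP-gated channel of endothelium, was higher (1.32). P2rx1 held 1 read or fewer in each female-labelled library, and its mean of 2.18 ± 0.0832 (SD, n = 3) in the male-labelled ones makes it at least 16.4-fold lower against a floor of 3 reads per library. The list's median was the same with P2rx1 at this bound.

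Of 8 tested genes of intracellular nucleotidases and of S-adenosylhomocysteine hydrolase and its homologs, a list that also holds genes not known to make adenosine, 2 were higher, 1 lower and 5 did not pass, with a median of 0.01. Ahcy, which releases adenosine from S-adenosylhomocysteine, was at 136 to 147 against 161 to 170 (0.24, limma adjusted p 0.00545), and the cytosolic nucleotidase Nt5c2 was at 15.6 to 21.3 against 23.3 to 24.4 (0.36, limma adjusted p 0.0195). The call of Nt5c2 was lost without male replicate 5 and without female replicate 4, 5 or 6 (limma adjusted p 0.0510 to 0.0616). The pyrimidine nucleotidase Nt5c3 was lower (-1.56). In purine salvage and breakdown, 5 of 15 genes tested were higher and 4 lower (median 0.04). The purine breakdown enzymes guanine deaminase Gda (492 to 504 against 30.1 to 53.0, -3.65) and xanthine dehydrogenase Xdh (-1.39) were lower, whereas the nucleoside phosphorylase gene Pnp2 was higher (1.36). Pnp and Pnp2 are close paralogs, so the split of reads between them is uncertain, and Pnp itself did not pass (0.02). Of the other nucleoside transporters, Slc29a2, the equilibrative partner of Slc29a1, was lower as well, at 7.55 to 11.1 against 1.28 to 1.66 (-2.12, limma adjusted p 6.92e-06). Slc29a3, an intracellular member of the family (0.75), and Slc29a4 (0.95) were higher.

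Downstream of the receptors, genes of the cyclic AMP pathway went both ways. Of 31 tested, 13 were higher and 14 lower, with a median of 0.14. Gnas, the stimulatory G protein subunit that Adora2a and Adora2b use, was at 1115 to 1136 against 1421 to 1452 (0.36, limma adjusted p 0.000755). Of 7 adenylyl cyclases tested, 3 were higher and 4 lower. Of these, Adcy4, the endothelial-enriched form (-2.82), and Adcy3 (-1.42) were lower, and Adcy1 (1.94), Adcy8 (1.80) and Adcy7 (1.59) were higher. Of the 9 phosphodiesterases of this list tested, 6 were lower, 1 higher and 2 did not pass. Pde7b (-3.01), Pde3b (-2.43), Pde3a (-2.06) and Pde2a (-1.29), which degrade cyclic nucleotides, were among the lower ones, Pde7a was higher (0.51, limma adjusted p 0.00734), and Pde8a (-0.06, with its sign turned under quantile normalization) and Pde8b (0.18) did not pass. The inhibitory subunit gene Gnai1 was higher (1.09). Of the 4 kinase regulatory subunit genes tested, 2 were higher, among them Prkar2a (1.39), 1 was lower and 1 did not pass.

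Genes that cyclic AMP and CREB are known to induce were lower in the female-labelled libraries in 7 of 9 tested and higher in 0, with a median log2 fold change of -1.52, where 34.6% of all genes tested were lower. One of the 7, Nr4a3, passed the filter only through the male-labelled libraries, and its mean in the female-labelled ones was 18.7% of theirs. Pde4b was at 206 to 263 against 23.2 to 31.0 (-3.16), and Fos (-2.21), Sik1 (-2.15), Per1 (-1.73), Pde4d (-1.52), Nr4a3 (-1.20) and Nr4a1 (-1.19) were lower too. Crem (-0.17) and Nr4a2 (0.31) did not pass, and Crem passed as lower without male replicate 4 (-0.36, limma adjusted p 0.0232). These genes also respond to other signals, such as kinase cascades and stress. Among 5 transcription factors tied to the members, Hif1a (1141 to 1826 against 298 to 379, -2.18) and Epas1 (479 to 529 against 114 to 133, -2.02), which encode the oxygen-regulated subunits of HIF, were lower. Ahr itself was lower by a smaller step (25.4 to 26.7 against 20.7 to 22.5, -0.27), Arnt was lower (-0.57), and Sp1 did not pass (-0.0012).

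**Figure D4:**
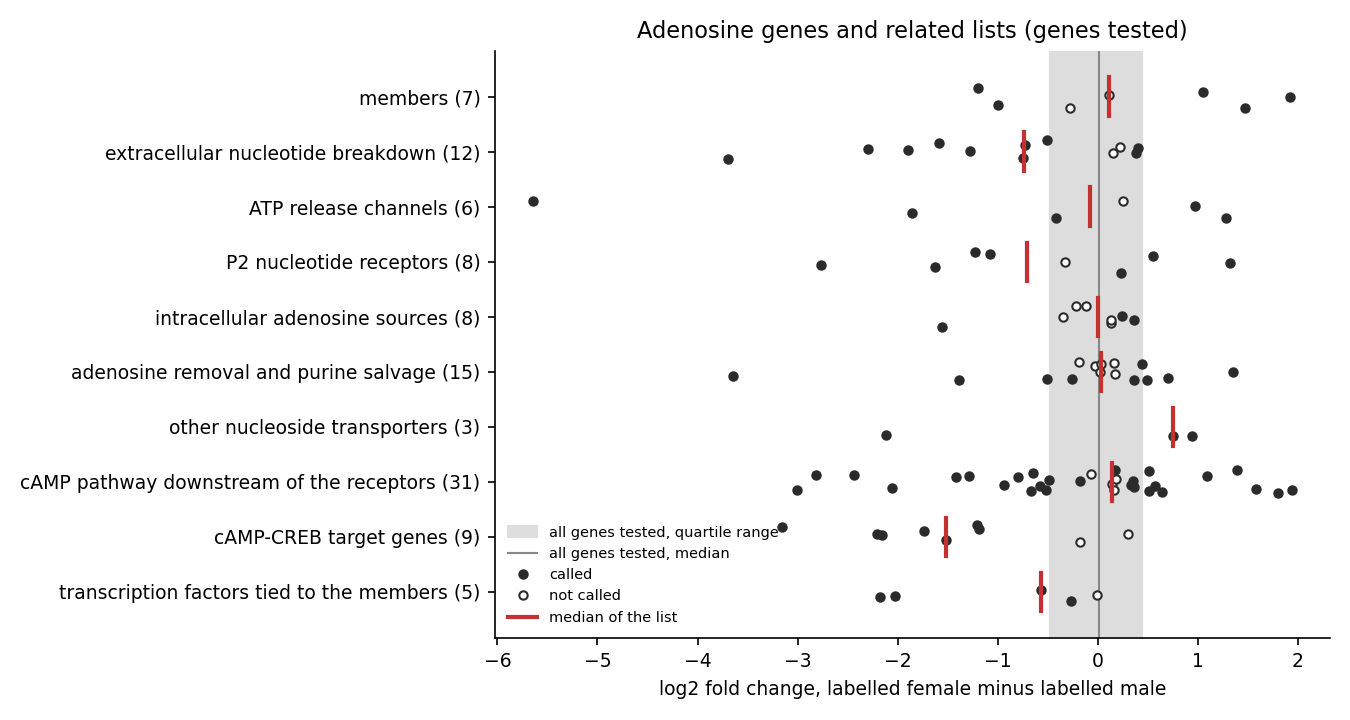
Log2 fold change (x axis, female-labelled libraries minus male) of each tested gene by list, with the number tested in brackets, filled points for genes that passed limma, red bars for list medians and the grey band from the lower to the upper quartile of all genes tested (-0.47 to 0.44). The cyclic AMP and CREB targets have the lowest median (-1.52), and the 7 members lie on both sides of 0.

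The list genes and other members whose profiles were most like each member's were found by the root-mean-square distance of log2(value + 1) profiles, centred over the 6 libraries, among 103 candidates. The distance was 0.11 between Entpd1 and Adcy1, and 0.08 between Nt5e and Prkar2a. It was 0.15 between Ada and Gnai1, 0.10 between Slc29a1 and P2rx6, 0.14 between Adora2a and Adcy3, 0.06 between Adk and Adal, and 0.15 between Adora2b and Ahcyl1. Next came Adcy8 for Entpd1 (0.24), Slc17a9 for Nt5e (0.17) and Ada (0.19), Pde10a for Slc29a1 (0.14), Pde2a for Adora2a (0.14), Gnai2 for Adk (0.07) and Lrrc8a for Adora2b (0.17). This scale shrinks genes near 0, so likeness to them does not extend to the ratio of means. The mean in the female-labelled libraries was 11.7% of the male-labelled one for P2rx6 but 49.6% for Slc29a1, and 14.4% for Adora2a but 36.4% for Adcy3 and 33.8% for Pde2a. All these profiles share the same 2 groups of libraries, so genes with a like difference between the groups are near each other by this measure.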

How the data were processed

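Poly(A) RNA of 6 libraries was sequenced, and 1 deposited table was used, with columns matched to samples by title. The submitters' processing notes name Bowtie2, RSEM, edgeR and the build mm39, without versions. The deposited signal values are read counts that the authors divided by 1 factor per library: in each column 100% of values were whole multiples (tolerance 0.001) of the smallest value above 0, which gave back the reads. Per the file headers, a deposited score column gives the authors' linear fold change with its sign, and p-value columns give their p and false discovery rate.

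As the values are normalized, limma 3.58.1 (R 4.3.3, intensity trend) was fitted to log2(value + 1) over the 12568 genes with at least 1 in at least 3 libraries, and p-values were adjusted by Benjamini-Hochberg over all of them (threshold 0.05). DESeq2 1.42.0 and edgeR 4.0.16 (quasi-likelihood) were run on the recovered reads. Scripts were tested on simulated reads. Members and lists were chosen with earlier results of these data known. Genes named were the members, list genes called with a log2 fold change of 1 or more in size, and genes fixed by name. Pde7a, Pde8a, Pde8b, Vwf, Robo4, Gpr182, Lum, Enpp1, Panx1, Pnp, Slc29a3, Slc29a4, Gnas, Crem, Nr4a2, Arnt, Sp1, Lyve1, Clec4g, Fcgr2b, Clec1b, Acta2, Cd68, Csf1r, Cd14, C1qa, C1qb and C1qc were chosen after their values were seen. The same holds for Kdr, Cldn5, Col3a1, Des, Tagln, Myh11, Thy1, Spp1, Epcam and Gjc1. Chromosomal coordinates are those of RefSeq promoters on GRCm38.p6, since the authors' build differs. Floors of 3 reads cover counting error only.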

Additional observations from a re-analysis of the deposited data

How the results depend on the processing

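Under 14 alternatives, 8 with all 6 libraries and 6 that each left out 1, the calls and directions of Entpd1, Nt5e, Adora2a, Ada and Slc29a1 were kept wherever the gene was tested. Adora2a was not tested when a value of at least 1 was required in all 6 libraries. In the fits that used the main filter, Adora2a passed it only through the male-labelled libraries, so its kept call there is a description. Of 97 values recomputed for the members, 95 kept direction and call. The other 2 were of Adk, which passed as higher under quantile normalization (0.17) and without male replicate 4, with a range of 0.050 to 0.16 over the fits that left out 1 library. The cause was not tested. For 77 other named genes that were tested, 1063 values were recomputed, and all but those given next kept direction and call. Kdr, Col3a1, Des, Tagln, Myh11, Thy1, Spp1 and Gjc1 were not among the 77. Calls were lost in 14 values, of Nt5c2, Enpp1 and Gnai2 (the last with the replicate block, adjusted p 0.0668, and without male replicate 5 or 6 or female replicate 4 or 5), and gained in 2, of Panx1 and Crem. The direction turned in 8 values, all of genes that did not pass. These were Pde8a (0.028) and Sp1 (0.090) under quantile normalization, Sp1 without male replicate 4 or female replicate 4 or 5, Pnp and Ahcyl1 without male replicate 4, and Ddx3y without male replicate 5. Over the fits that left out 1 library the log2 fold change ranged from -0.063 to 0.11 for Sp1, -0.053 to 0.079 for Pnp, -0.18 to 0.0047 for Ahcyl1 and -0.21 to 0.13 for Ddx3y. Of these changes the cause was not tested. For all genes, 8704 were called, from 7684 with at least 1 in all 6 libraries to 9085 with no filter, and 7731 to 9496 without 1 library. Same-numbered libraries were not pairs by their values (correlations of deviations -0.09, -0.03 and -0.17). With the replicate block 8314 genes, 5 members and 71 list genes were called, against 75 list genes without it, and no member changed its call. The reads limit Adora2a, which rests on 4 to 8 reads in the libraries labelled female.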
